A study of Mus musculus with 29 samples.

Results

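The genes described here are 9 genes of the complement system, taken by their symbols from a table of 24421 genes: C1qa, C1qb, C1qc, C1ra, C2, C3, C4b, Cfb and C5ar1. The rule uses their symbols and no measured value, and all 9 were found and passed the filter on low counts in every comparison, with at least 196 counts in any library. Their RNA was measured by RNA-seq in 29 mice of 7 groups from a model of gastric cancer that spreads over the peritoneum. Female C57BL/6J mice were implanted intraperitoneally with YTN16, a mouse gastric cancer cell line that grows in mice with an intact immune system. Each library held RNA of 1 mouse, from peritoneum that had been stripped off, whether or not it carried tumor nodules. At 3wk (day 21) there were 5 untreated mice and 5 mice given dual ICI, meaning antibodies against both PD1 and CTLA4, 2 checkpoint receptors of T cells. At 5wk (day 35) there were 5 untreated mice, 5 given anti-PD1, 4 given anti-CTLA4 and 5 given dual ICI, and the untreated mice of both times received the carrier solution only. Of the dual ICI mice at 5wk, 2 (mice 1 and 5) still carried tumor and are called dual ICI-uncured, and 3 (mice 2, 3 and 4) had cleared it and are called dual ICI-cured. The labels do not give this outcome. It was taken from the mouse numbers in the study's text, on the reading that these are the replicate numbers of the libraries. Total counts per library lay between 25989217 and 31219650 (median 28625462). Levels are given as CPM (read counts scaled for depth, on TMM-adjusted library sizes), errors as SD between mice, and a gene was called changed at an adjusted p under 0.05 in edgeR's quasi-likelihood test.

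Complement is a cascade of blood and tissue proteins that tags cells and debris. In the classical pathway, C1q, built from the products of C1qa, C1qb and C1qc, recognizes antibody or altered surfaces, the proteases C1r and C1s that travel with it are switched on, and they cut C4 and C2 into a convertase that cuts C3. In the alternative pathway, factor B (Cfb) forms the convertase with C3 itself. Fragments of C3 coat the target, and C5a, released further down, attracts neutrophils and macrophages through its receptor C5ar1. In tissues, C1q is known as a product of macrophages, while C3, C4 and factor B are made by liver and also by epithelial, mesenchymal and myeloid cells, with interferon gamma known as an inducer of several of them.

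On GRCm38 (mm10), C1qa, C1qb and C1qc lie next to each other on the minus strand of chromosome 4, within 18675 bases (chr4:136880129-136898803). C4b (chr17:34728380-34743882), Cfb (chr17:34856374-34862518) and C2 (chr17:34862604-34898265) lie on the minus strand of chromosome 17 within the major histocompatibility region, with 85 bases between Cfb and C2. C3 is farther along the same chromosome (chr17:57203970-57228136), C1ra is on chromosome 6 (chr6:124512405-124523443, plus strand) and C5ar1 on chromosome 7 (chr7:16246743-16259540, minus strand). Cfb and C2 both overlap Gm20547, a gene model on the same strand that has no entry in the table, and C2 overlaps Zbtb12 on the other strand. C1ra and C4b have close paralogs in the mouse genome (C1rb and C4a), so reads that match both could have been shared or lost, and the sources used here do not say whether strand was used in counting.

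RefSeq promoter windows (GRCm38.p6, from 250 bases before to 50 after the annotated start) were held by the reference table for 5 of the 9 genes. Those of C1qb and C1qc are shown because these neighbours had nearly the same pattern over the libraries, and those of C1ra and C3 because they stand for the second pattern described below. Capitals mark matches to any of 6 searched motifs on either strand: the gamma-activated site (TTCNNNGAA), the interferon-stimulated response element (GAAA, 2 free bases, GAAA), a PU.1 site (GAGGAAGT), the TATA box (TATAAA), a kappaB site (GGG, 3 free bases, TTCC) and the MAF recognition core (TGCTGA). No 2 matches overlap in the sequences shown.
C1qb (chr4:136886151-136886450, minus strand): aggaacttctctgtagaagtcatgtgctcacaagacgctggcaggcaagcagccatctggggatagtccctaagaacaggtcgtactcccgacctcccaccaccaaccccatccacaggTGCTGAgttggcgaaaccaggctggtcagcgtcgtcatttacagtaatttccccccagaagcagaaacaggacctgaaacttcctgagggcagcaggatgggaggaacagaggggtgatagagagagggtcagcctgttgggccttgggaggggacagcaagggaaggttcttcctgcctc
C1qc (chr4:136892865-136893164, minus strand): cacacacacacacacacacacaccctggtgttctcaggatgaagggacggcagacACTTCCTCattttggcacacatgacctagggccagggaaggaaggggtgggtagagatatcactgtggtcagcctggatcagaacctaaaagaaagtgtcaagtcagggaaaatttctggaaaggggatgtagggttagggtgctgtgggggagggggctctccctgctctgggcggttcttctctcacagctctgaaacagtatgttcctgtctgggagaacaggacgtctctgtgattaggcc
C1ra (chr6:124512371-124512670, plus strand): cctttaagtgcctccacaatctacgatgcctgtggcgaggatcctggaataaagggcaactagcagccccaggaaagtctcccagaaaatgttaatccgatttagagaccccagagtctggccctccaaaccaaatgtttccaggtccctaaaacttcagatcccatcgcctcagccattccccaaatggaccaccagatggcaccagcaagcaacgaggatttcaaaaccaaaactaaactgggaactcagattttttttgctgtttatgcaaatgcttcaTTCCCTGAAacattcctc
C3 (chr17:57228087-57228386, minus strand): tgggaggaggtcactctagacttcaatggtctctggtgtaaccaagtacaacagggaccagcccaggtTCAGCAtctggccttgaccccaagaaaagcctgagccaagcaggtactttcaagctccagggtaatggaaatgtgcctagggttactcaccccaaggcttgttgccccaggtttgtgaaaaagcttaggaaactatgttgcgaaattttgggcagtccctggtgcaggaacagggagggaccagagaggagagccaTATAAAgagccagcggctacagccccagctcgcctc
The C1qc window held a PU.1 match on the reverse strand, and 3.11% of 32544 promoter windows of this length held one on either strand. All shares of windows given here count a match anywhere in the window on either strand. The C1ra window held a gamma-activated site match 32 bases after the start (8.33% of windows), and the C3 window a TATA box 14 bases after it (13.6% of windows). The MAF core was in the windows of C1qb, C3 and C5ar1 and in 19.5% of all windows. None of the 5 windows held the interferon element (3.45% of windows) or the kappaB letters (5.56% of windows), and these matches are letters in a window, not sites shown to be used.

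Per kilobase of merged exons, C3, the protein on which all routes of the cascade converge, had the highest level of the 9, with a mean of 526 CPM per kb over the 29 libraries. C1qa (202) and C1qb (197 CPM per kb) followed, then C4b (94.4), C1qc (91.4), Cfb (77.2), C1ra (49.5), C2 (22.2) and C5ar1 (11.0 CPM per kb). Together the 9 genes took between 0.185% and 0.747% of all counts of a library. Among the 9, C3 alone made up 54.2% to 69.7% of the counts. Cfb varied most between libraries, with its highest level 6.1 times its lowest, followed by C5ar1 (6.08 times), while the other 7 genes ranged over 2.47 to 3.60 times.

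Some libraries stood apart before any comparison. In 13 gastric epithelium genes, which stand for the YTN16 tumor cells in this tissue, the summed level was 96.1, 39.3 and 20.001 CPM in cured mice 2, 3 and 4, although all libraries are labelled as tumor tissue. The genes Gkn1, Gkn2, Tff1 and Muc5ac, defining genes of that list, were at 0 in all 3 cured mice, and the most abundant gene, Krt8, had a median of 5.46 CPM there against 979.6 CPM in untreated mice at 5wk. Anti-PD1 mouse 5 had 60.97 CPM of these genes, against 2834 to 3701 CPM in the other 4 anti-PD1 mice, and untreated mouse 2 at 5wk had 1126 CPM, against 2779 to 3836 CPM in the other 4. Which anti-PD1 mouse had been cured is not given in the sources used here, and the anti-PD1 mice were kept as 1 group. A list of 30 skeletal muscle genes, most abundant in Myh4, moved the other way: it summed to 369486 to 411255 CPM in the cured mice, 382596 CPM in anti-PD1 mouse 5 and 318305 CPM in untreated mouse 2, against 63982 to 177533 CPM in the other untreated mice at 5wk. In such bulk samples, fewer cells of a type and less RNA of a gene per cell cannot be told apart. At 3wk, dual ICI mice 3 and 4 had a C1qa to C1qb ratio found in no other library, which is described with the C1q genes.

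**Figure D1:**
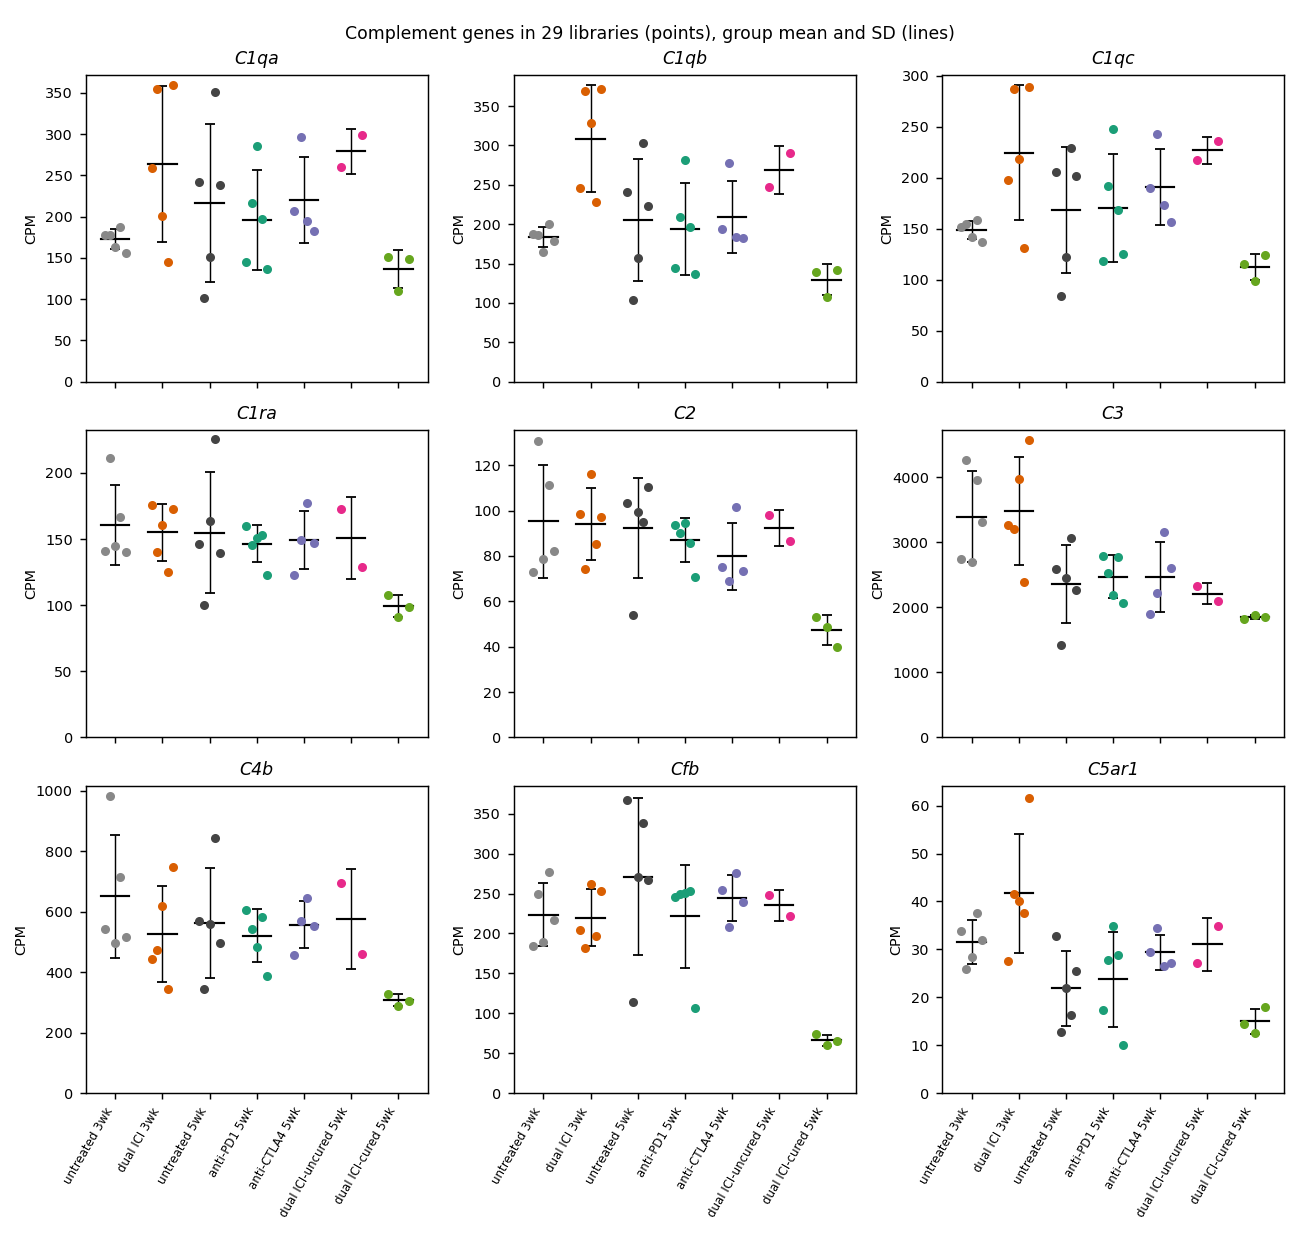
Levels of the 9 complement genes in CPM (linear axes from 0) in the 29 libraries, by group; each point is 1 mouse, and lines give the group mean and SD. The 3 dual ICI-cured mice had the lowest group mean of every gene, and for Cfb they lay at 60.2 to 73.8 CPM, below all other libraries.

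The order of the group means was the same at its lower end for every gene: the cured mice had the lowest mean of all 7 groups in 9 of 9 genes. For 8 of the 9, every cured mouse lay below every mouse of the group next above, and for C5ar1 the 2 groups overlapped. Which group came next differed by gene, and the shares of all genes with these orders are not given here. Cured mice did overlap groups with higher means. For C1qa, untreated mouse 2 at 5wk had 102 CPM, below the cured mice at 110 to 152 CPM. Against untreated mice at 5wk alone, 3 of the 9 lay lower in cured mice without overlap, as did 26.9% of all genes tested. Above the cured mice, every pair of neighbouring groups overlapped for every gene. The highest mean belonged to a dual ICI group for the C1q genes, C5ar1 and C3: the uncured mice for C1qa (279 ± 27.1 CPM, n = 2) and C1qc (227 ± 13.6 CPM), and the dual ICI mice at 3wk for C1qb (309 ± 67.6 CPM, n = 5), C5ar1 (41.7 ± 12.4 CPM) and C3 (3479 ± 829 CPM). C1ra, C2 and C4b were highest in untreated mice at 3wk (161 ± 30.2, 95.2 ± 24.8 and 651 ± 204 CPM, n = 5). Cfb was highest in untreated mice at 5wk, at 271 ± 98.1 CPM.

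At 3wk the comparison asked what dual ICI did to the tumor-bearing peritoneum before tumors had been cleared. The 3 C1q genes were higher on average in dual ICI than in untreated mice, by 1.51 to 1.69 times, without an adjusted p under 0.05. C1ra, C2, C3 and Cfb lay near their untreated level, and C4b lay lower on average without being called (-0.31 ± 0.25, log2 fold change ± SE). For C1qb, whose product is the B chain of C1q, the 5 dual ICI mice 1 to 5 had 247, 369, 328, 228 and 372 CPM, and the 5 untreated mice 187, 186, 165, 201 and 179 CPM. Every dual ICI mouse lay above every untreated mouse, a separation in this direction that 1.83% of the 15503 genes tested showed. The difference was 0.76 ± 0.16 (log2 fold change ± SE, edgeR adjusted p = 0.0585). It missed the threshold, and DESeq2 gave an adjusted p of 3.38e-04. Leaving out dual ICI mouse 1 (adjusted p = 0.0416) or mouse 4 (0.0375) brought it under 0.05 in edgeR, and the other 8 single removals gave up to 0.168.

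For C1qa, the A chain, the dual ICI mice had 259, 354, 201, 146 and 359 CPM and the untreated mice 178, 177, 164, 188 and 156 CPM. Here dual ICI mouse 4 lay below all 5 untreated mice, and the other 4 lay above them. The difference was 0.61 ± 0.22 (edgeR adjusted p = 0.317). For C1qc, the C chain, the dual ICI mice had 197, 287, 219, 131 and 289.5 CPM against 152, 154, 142, 159 and 137 CPM, with mouse 4 again the lowest of the 10 (0.60 ± 0.19, edgeR adjusted p = 0.242). The 3 C1q genes had an unadjusted p under 0.05, in the direction in which 6.02% of all genes did. None of the 9 genes was called in edgeR, where 0.574% of all genes tested were (73 higher and 16 lower), while DESeq2 called C1qb alone of the 9 and 2.51% of all genes. With 1 library left out at a time, edgeR called 6 to 119 genes in place of 89.

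The products of C1qa, C1qb and C1qc are joined in fixed proportion in the C1q molecule, so the ratios of their counts were compared within each library. C1qa to C1qb was 0.61 and 0.64 in dual ICI mice 3 and 4 at 3wk, against 0.877 to 1.16 in the other 27 libraries (1.01 ± 0.057). C1qc to C1qb was 0.667 and 0.575 in mice 3 and 4, against 0.755 to 0.981 in the 27. Base composition was measured beside these ratios. For each library, the median of 1321 GC-rich genes minus the median of 1321 GC-poor genes was taken, in log2 CPM centred on each group. It was -0.26 in mouse 3 and -0.76 in mouse 4, the latter the lowest of all 29. It was -0.27 in untreated mouse 3 at 5wk, where the C1qa to C1qb ratio was 0.960 and inside the range of the 27, and it was highest, at 0.48, in untreated mouse 4 at 5wk, which also had the highest C1qa to C1qb ratio. Over the 29 libraries this measure and the log2 ratio, both centred on the groups, had a Pearson r of 0.85, given as a description of libraries that differ together in many genes. The longest transcript of C1qa holds 59.5% G and C, that of C1qb 57.4% and that of C1qc 57.5%. The part of base composition in the C1q results was not tested. With mice 3 and 4 both left out, the 3 genes moved to 0.90 ± 0.14 (C1qa), 0.83 ± 0.15 (C1qb) and 0.78 ± 0.14 (C1qc), with edgeR adjusted p-values of 0.0745, 0.109 and 0.109, and 5 genes of all were called.

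**Figure D2:**
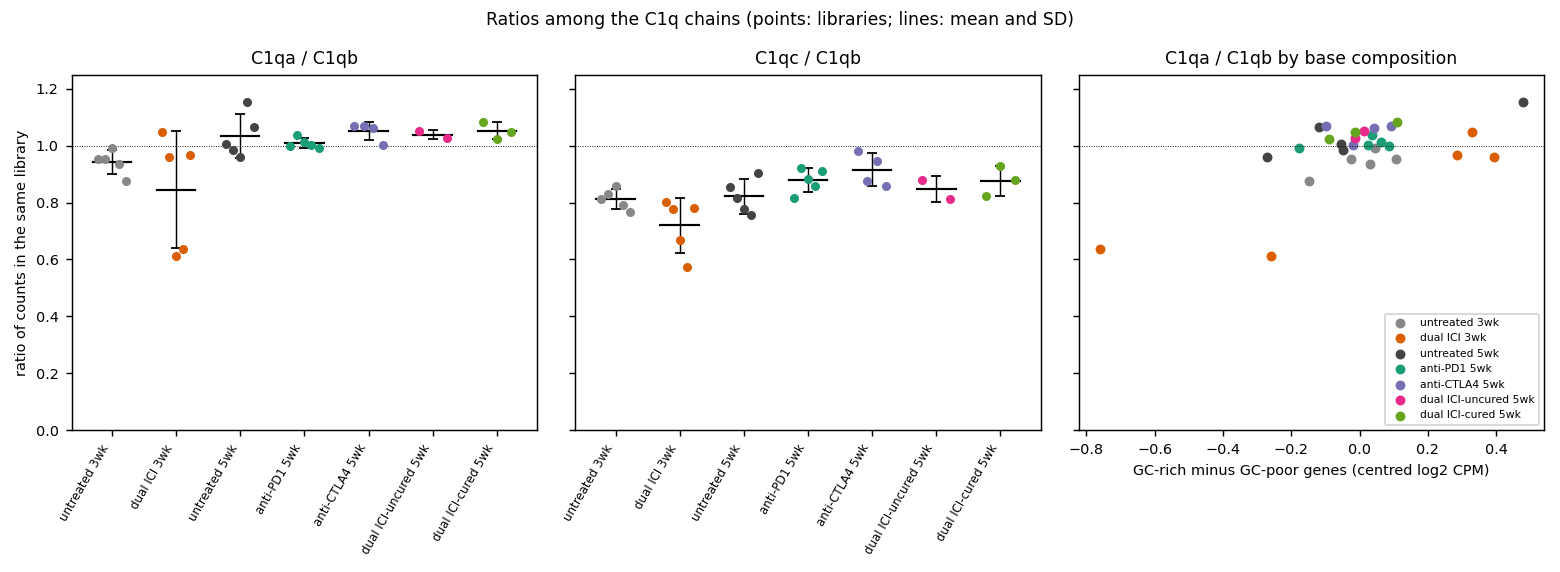
Ratios of C1qa and C1qc to C1qb counts within each of the 29 libraries (linear axes from 0, points are mice, lines are group mean and SD), and the C1qa to C1qb ratio against the difference between GC-rich and GC-poor genes in log2 CPM, centred on each group. Dual ICI mice 3 and 4 at 3wk lie at ratios of 0.61 and 0.64, below all other libraries, and at GC differences of -0.26 and -0.76.

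C5ar1, the receptor for C5a, had 27.6, 41.5, 40.2, 37.7 and 61.5 CPM in the dual ICI mice at 3wk and 33.7, 26.0, 28.5, 37.7 and 32.0 CPM in untreated mice. The groups overlapped through dual ICI mouse 1, and dual ICI mice 2 to 5 lay above every untreated mouse, mouse 4 only narrowly (0.41 ± 0.19, edgeR adjusted p = 0.478). C3 had 3266, 3205, 3975, 2383 and 4567 CPM under dual ICI and 2749.6, 4263, 2697, 3951 and 3314 CPM without it, so that the dual ICI range held all untreated mice (0.04 ± 0.23, adjusted p = 0.983). C1ra (-0.05 ± 0.15), C2 (-0.01 ± 0.18) and Cfb (-0.02 ± 0.16) also had differences smaller than their SE, and C4b lay lower on average (-0.31 ± 0.25, edgeR adjusted p = 0.751). The median of the 9 log2 fold changes was 0.04, against 0.02 over all genes tested.

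A list of genes known to respond to interferon gamma was followed beside the complement genes at 3wk. Of its 14 genes, 5 were called higher (Irf8, Igtp, Psmb8, Psmb9 and Tap1), beside 0.574% of all genes called in either direction, all 14 had log2 fold changes above 0 and the median was 0.99. The summed level of the list was 946 to 2263 CPM in dual ICI mice (median 1492) and 577 to 968 CPM in untreated mice (median 697). Over the 29 libraries, centred on the groups, the mean of this list had Pearson r between -0.03 and 0.22 with the 9 complement genes. A list of 12 macrophage genes, most abundant in Lyz2, had log2 fold changes above 0 in 12 of 12, a median of 0.32 and none called. It summed to 1652 to 2984 CPM in dual ICI mice (median 2145) against 1423 to 1949 CPM in untreated mice (median 1506), and the part of macrophage content in the C1q levels was not tested. Set against Csf1r, a receptor that marks macrophages, C1qb counts were 1.02 ± 0.19 times those of Csf1r in dual ICI mice and 0.76 ± 0.10 times in untreated mice at 3wk, with overlapping ranges of 0.81 to 1.34 and 0.65 to 0.89. Against Cd68, another macrophage gene, the ratio was 4.84 ± 1.10 in dual ICI mice and 3.99 ± 0.61 in untreated mice. Its ranges of 3.36 to 6.28 and 3.16 to 4.58 overlapped more widely.

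Dual ICI-uncured mice at 5wk were set against untreated mice to describe tumors that persisted under treatment. None of the 9 genes was called, and edgeR called 0% of the 16156 genes tested, with 787 at an unadjusted p under 0.05, none of them among the 9, and 17 called by DESeq2. C1qb had 247 and 291 CPM in the 2 uncured mice, inside the untreated range given by 241, 103, 157, 304 and 223 CPM (0.38 ± 0.37, edgeR adjusted p = 0.759). C1qa (0.36 ± 0.41), C1qc (0.42 ± 0.36) and C5ar1 (0.50 ± 0.33) were also higher on average and not called. The other 5 genes lay between -0.21 (Cfb) and 0.03 (C4b), each within 1 SE of 0. Both uncured mice lay inside the untreated range for 7 of the 9 genes, and mouse 5 lay above it for C1qc (237 against at most 229 CPM) and C5ar1 (34.9 against at most 32.9 CPM). In the same comparison 12 of 12 macrophage genes (median 0.43) and 9 of 9 T cell genes (median 1.23) had log2 fold changes above 0. None of 30 skeletal muscle genes (median -1.14) or 8 adipocyte genes (median -1.02) did. The part of these lists in the complement values was not tested. The test of whether the dual ICI difference at 5wk in uncured mice departed from that at 3wk gave no call among the 9 genes. By the study's schedule, the 5wk mice also received later injections, and the 3wk mice were taken before their outcome was known. Time, later injections, outcome and the library number ranges described below cannot be told apart in this test. For C1qb the difference between the 2 effects was -0.37 ± 0.38 and for C4b 0.34 ± 0.44 (edgeR adjusted p = 0.786 and 0.834), and 0 of 16542 genes were called by edgeR, against 1050 at an unadjusted p under 0.05 and 1 called by DESeq2.

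The cured mice were compared with untreated mice at 5wk to set peritoneum without tumor against peritoneum with it. All 9 complement genes had a log2 fold change below 0 in cured mice, where 47.3% of all genes had one above 0. Their median was -0.64 against -0.05 over all genes tested, and 3 were called lower: Cfb, C2 and C4b. This stands beside a comparison in which 44.7% of the 15816 genes tested were called, and 26.7% of all genes tested were called lower, so the 3 calls among 9 genes are a share near that background. Cfb, the protease subunit of the alternative pathway convertase, had 73.8, 60.2 and 65.4 CPM in cured mice 2, 3 and 4 and 367, 114, 271, 338 and 266 CPM in the 5 untreated mice. All cured mice lay below all untreated mice, and untreated mouse 2 lay far below the other 4. The difference was -2.002 ± 0.34 (edgeR adjusted p = 0.00178).

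C2, the protease subunit of the classical pathway convertase and the neighbour of Cfb, had 53.2, 48.6 and 40.1 CPM in cured mice and 103, 54.2, 99.3, 94.9 and 110.3 CPM in untreated mice. The groups did not overlap, though cured mouse 2 lay just below untreated mouse 2 (-0.94 ± 0.23, edgeR adjusted p = 0.00893). C4b, which encodes the other subunit of that convertase, had 329, 288 and 305 CPM against 569, 343, 558, 845 and 495 CPM, again without overlap (-0.85 ± 0.28, edgeR adjusted p = 0.0334). The C4b call was lost when any cured mouse or untreated mouse 1, 3 or 5 was left out, with adjusted p-values of 0.0501 to 0.115. A separation with the cured mice lower was shown by 26.9% of all genes tested.

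The other 6 genes overlapped between cured and untreated mice. C1ra, a protease of the C1 complex, had 108, 91.4 and 98.8 CPM in cured mice, of which the first lay above untreated mouse 2 at 99.8 CPM and all below the other 4 (-0.62 ± 0.24, edgeR adjusted p = 0.0582). C1qb had 139.9, 107 and 142 CPM (-0.64 ± 0.31, adjusted p = 0.119), and C1qa (-0.64 ± 0.35), C1qc (-0.55 ± 0.31) and C5ar1 (-0.52 ± 0.28) were lower by similar amounts. C3 had 1821, 1883 and 1846 CPM in cured mice against 2591, 1423, 2455, 3065 and 2269.9 CPM, and the cured mice were above untreated mouse 2 and below the other 4 (-0.33 ± 0.30, edgeR adjusted p = 0.396). These calls depended in part on untreated mouse 2. Without it, 8 of the 9 genes were called lower, all but C3 (edgeR adjusted p = 0.0682), with C1qb at -0.80 ± 0.22 (adjusted p = 0.0117) and Cfb at -2.19 ± 0.17, and 59.5% of all genes tested were called.

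**Figure D3:**
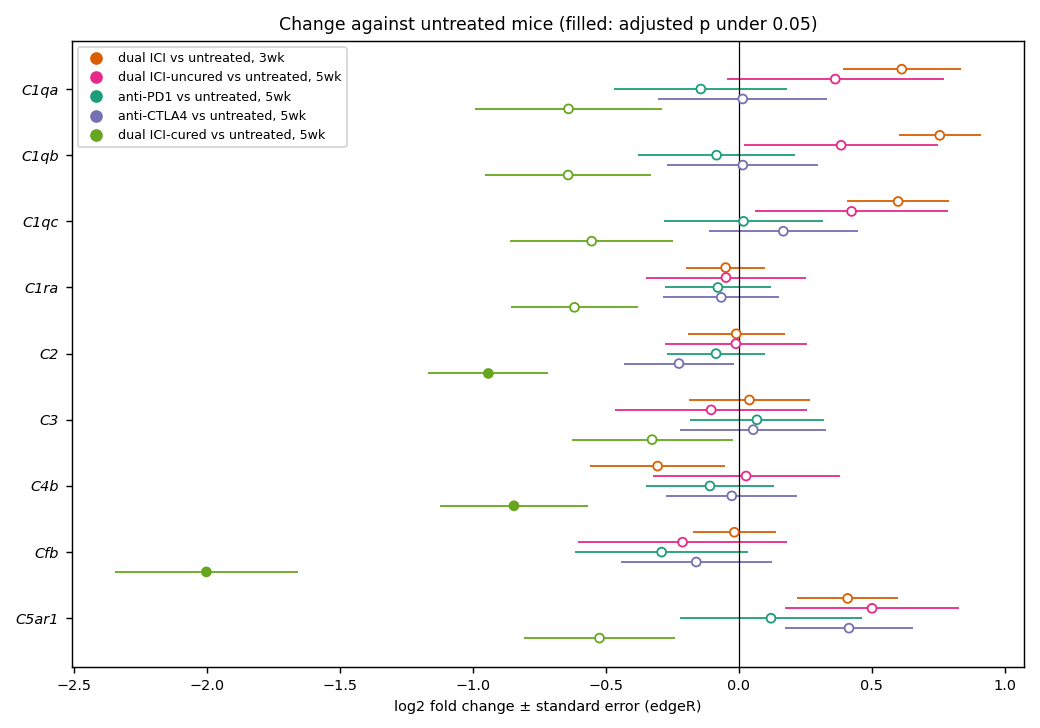
Log2 fold change against untreated mice of the same time with its SE (edgeR), for the 9 complement genes in 5 comparisons; filled points have an adjusted p under 0.05. Only Cfb (-2.002), C2 (-0.94) and C4b (-0.85) in cured mice are filled, and the C1q genes at 3wk lie between 0.60 and 0.76.

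The ratios to C3 within a library were lower in cured than in untreated mice at 5wk for Cfb, C2 and C4b. Cfb counts were 0.036 ± 0.0043 of those of C3 in cured mice, 0.11 ± 0.022 in untreated mice at 5wk and 0.066 ± 0.0047 in untreated mice at 3wk, and its ratio to C2 was 1.42 ± 0.20 in cured against 2.87 ± 0.67 in untreated mice at 5wk. The ratio of C2 to C3 was 0.0256 ± 0.0038 in cured and 0.0396 ± 0.0063 in untreated mice at 5wk, but 0.0279 ± 0.0023 in untreated mice at 3wk, which overlapped the cured mice. That of C4b to C3 was 0.166 ± 0.014 in cured and 0.236 ± 0.024 in untreated mice at 5wk, with 0.190 ± 0.027 in untreated and 0.149 ± 0.011 in dual ICI mice at 3wk. In anti-PD1 mouse 5, with few epithelial transcripts, Cfb was 106 CPM, the lowest of that group, against 246, 249, 251 and 253 CPM in mice 1 to 4. C3 in the same mouse was 2074 CPM, against 2194 to 2786 CPM in the other 4. Over the 29 libraries, centred on the groups, the mean of the gastric epithelium list had a Pearson r of 0.77 with Cfb, 0.62 with C5ar1, 0.48 with C2 and 0.21 to 0.38 with the other 6. The neutrophil list had r of 0.70 with Cfb and 0.77 with C5ar1, and the skeletal muscle list -0.64 with Cfb and -0.69 with C5ar1, all given as a description of the same 29 libraries. Of the list's genes tested, 9 of 10 were called lower in cured mice, and 13 of 30 skeletal muscle genes were called higher, none lower. The part of lost tumor cells or added muscle in the lower complement levels was not tested. The macrophage list had 3 genes called higher and 1 lower of 12 in cured mice, a median of -0.06 and summed levels of 933, 1081 and 1065 CPM against 654 to 1525 CPM in untreated mice. All 7 neutrophil genes tested were called lower, and their summed level was 7.5 to 9.4 CPM in cured mice against 33.4 to 118 CPM in untreated mice. Ngp was at 0 in all 3 cured mice. Of the interferon-inducible list, 10 of 14 genes were called lower in cured mice (median -1.09), and of the T cell list 6 of 9 (median -1.22), and their part in the lower complement levels was not tested. Of 11 liver genes, markers of the organ that supplies most complement of the blood, 7 were tested and 5 called lower in cured mice, where Ttr and Fgb were at 0. The summed level of that list was 81.5, 74.8 and 109 CPM in cured and 78.1 to 208 CPM in untreated mice, mostly from Cyp2e1.

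**Figure D4:**
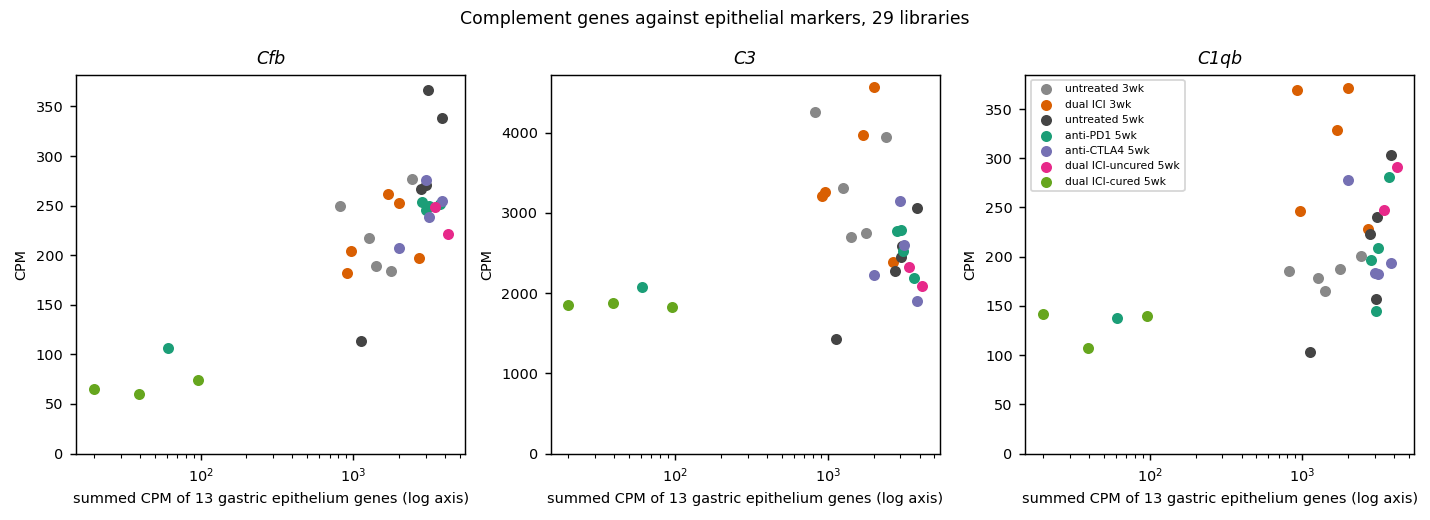
Levels of Cfb, C3 and C1qb in CPM (linear axes from 0) against the summed CPM of 13 gastric epithelium genes (log axis) in 29 libraries, each point 1 mouse. The 3 cured mice and anti-PD1 mouse 5, with under 100 CPM of epithelial genes, have Cfb at 60.2 to 106 CPM, while their C3 lies at 1821 to 2074 CPM.

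Within the dual ICI mice at 5wk, uncured mice were set against cured mice, so that outcome differed under 1 treatment. All 9 genes were higher in uncured mice without overlap, as were 43.7% of the 15796 genes tested, and 8 of 9 were called in a comparison in which edgeR called 70.0% of all genes (36.9% as higher). The median of the 9 log2 fold changes was 0.98, against 0.05 over all genes tested. Cfb again differed most, with 248 and 222 CPM in uncured mice against 73.8, 60.2 and 65.4 CPM (1.80 ± 0.11, edgeR adjusted p = 1.73e-06). C1qa (260.1 and 298 CPM against 152, 109.8 and 148 CPM), C1qb, C1qc and C5ar1 were higher by 0.98 to 1.03. C2 was higher by 0.94 ± 0.12 and C4b by 0.88 ± 0.16. C1ra was higher by 0.57 ± 0.13 (edgeR adjusted p = 0.00391). C3, at 2321 and 2094 CPM against 1821, 1883 and 1846 CPM, was higher by 0.23 ± 0.11 and not called by edgeR (adjusted p = 0.0989), but called by DESeq2 (0.0164). Marker lists moved in the same comparison: 7 of 12 macrophage genes were called higher and 2 lower in uncured mice (median 0.48, summed level 1444 and 1683 CPM against 933 to 1081 CPM), 7 of 7 neutrophil genes and 8 of 9 T cell genes tested were called higher (medians 4.52 and 2.28), and 30 of 30 skeletal muscle genes lower (median -2.71). Of the gastric epithelium genes 7 of 9 tested (median 7.14) and of the interferon-inducible genes 14 of 14 (median 1.72) were called higher, and 8 of 8 adipocyte genes were called lower (median -1.86). Their part in the complement differences was not tested. Both comparisons with cured mice share these 3 mice, so their directions are not independent of each other.

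Under either single antibody at 5wk, no complement gene of the 9 was called, and the spread between mice was wide beside the differences. Under anti-PD1, edgeR called 0% of 15640 genes, with 205 at an unadjusted p under 0.05 and none called by DESeq2, and the 9 complement genes lay between -0.29 (Cfb) and 0.12 (C5ar1). Without anti-PD1 mouse 5, Cfb stood at -0.12 ± 0.27. C1qb had 145, 209, 281, 196 and 137 CPM in anti-PD1 mice, inside the untreated range (-0.08 ± 0.30). Under anti-CTLA4, edgeR called 0% of 15781 genes, with 128 at an unadjusted p under 0.05 and none called by DESeq2, and the 9 genes lay between -0.23 (C2) and 0.41 (C5ar1). C5ar1 had 29.5, 34.6, 26.5 and 27.1 CPM in anti-CTLA4 mice against 32.9, 12.8, 21.8, 16.3 and 25.5 CPM, with 1 untreated mouse among them (0.41 ± 0.24, edgeR adjusted p = 0.9998). C1qb had 194, 278, 183 and 182 CPM, of which mouse 2 lay far above the other 3 (0.01 ± 0.28).

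Between untreated mice at 5wk and at 3wk, 10.8% of the 15604 genes tested were called, and none of the 9. C5ar1 had a log2 fold change below 0 at 5wk (-0.53 ± 0.22, edgeR adjusted p = 0.126) and was the only one of the 9 with an unadjusted p under 0.05, a rule met with lower level by 13.1% of all genes. C3 had the same size of difference (-0.53 ± 0.26, adjusted p = 0.191), and C1qa (0.33 ± 0.27) and Cfb (0.28 ± 0.26) lay higher on average. In the same comparison 4 of 12 macrophage genes (median -0.61) and 6 of 9 fibroblast genes (median -0.83, most abundant in Col3a1) were called lower, while 2 of 6 neutrophil genes (median 0.78), 1 of 10 gastric epithelium genes (median 0.84) and 3 of 6 liver genes tested (median 1.27) were called higher. The part of these lists in the C5ar1 and C3 levels was not tested. Without untreated mouse 2 at 5wk, Cfb stood at 0.47 ± 0.16 and was called higher (edgeR adjusted p = 0.0481), and 4915 genes of all were called in place of 1687. The library names of the 2 times carry codes from 2 separate number ranges, whose meaning is not given in the sources used here. Time, the later carrier injections of the 5wk mice and whatever these ranges stand for cannot be told apart. Untreated mice at 3wk were close to each other in the C1q genes, with an SD of 6.10% to 7.21% of the mean, and spread over 36.8% to 44.1% of it at 5wk.

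Across the libraries, the 9 genes fell into groups by their pattern, given here as Pearson r of log2 CPM centred on the 7 group means (29 libraries, which share library effects, and 16700 genes). C1qa, C1qb and C1qc had r of 0.93 to 0.96 with each other. The nearest other genes were Card9 for C1qa (0.94), Ctsh for C1qb (0.91) and Fermt3 for C1qc (0.94), of which Card9 is a myeloid signalling adaptor, Ctsh a lysosomal protease and Fermt3 an integrin regulator of blood cells. C3, C4b and C1ra formed the second set, with r of 0.91 between C3 and C4b, 0.90 between C4b and C1ra and 0.84 between C1ra and C3. Their next nearest genes were Ecm1 for C4b (0.90), Fbln1 for C1ra (0.83), both of the extracellular matrix, and Espn (0.89) and Dpysl5 (0.85) for C3. C2 was near to Rnase4 and Zbtb8a (0.86 and 0.85), and Cfb to Naglu (0.92), Vwa2 and Shisa5 (both 0.91). C5ar1 stood with the myeloid genes Fcgr2b (0.94), Ms4a6d (0.89) and Bin2 (0.88). The members' r with the macrophage list was 0.67 to 0.79 for the C1q genes and 0.70 for C5ar1, and 0.28 to 0.46 for the other 5.

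The rest of the system was followed in a list of 44 further complement genes, all in the table, of which 34 or 35 passed the filter in each comparison. At 3wk, 1 of 34 was called, against 0.574% of all genes: Itgb2, the shared beta chain of the complement receptors CR3 and CR4. It had 78.5, 119, 97.1, 112 and 127 CPM under dual ICI and 58.8, 65.8, 57.5, 65.4 and 54.9 CPM without, so that no mouse overlapped (0.82 ± 0.14, edgeR adjusted p = 0.0260). Itgb2 is also a general integrin chain of leukocytes, and of 9 T cell genes, most abundant in Lck, 3 were called higher at 3wk and all 9 lay above 0 (median 1.43, summed level 47.1 to 88.9 CPM against 15.5 to 30.9 CPM), whose part in the Itgb2 level was not tested. Its partners Itgam (0.72 ± 0.20, mean 132 against 80.8 CPM, adjusted p = 0.162) and Itgax (0.86 ± 0.26, 0.206) were not called, nor was C3ar1, the receptor for C3a (0.74 ± 0.24, 0.255). The median of the 7 receptor genes tested was 0.74, against 0.02 for the 12 regulators. Cd93, a receptor of endothelial and myeloid cells, had 80.3 against 80.9 CPM. Cfi, the protease that inactivates C3b, was lower at 3wk, at 1.15, 0.71, 1.79, 4.76 and 4.14 CPM under dual ICI and 11.7, 5.07, 8.55, 11.7 and 10.8 CPM without, without passing the adjusted threshold (-1.90 ± 0.47, edgeR adjusted p = 0.119).

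In cured against untreated mice at 5wk, 6 of the 34 were called higher and 12 lower, 52.9% in all, beside 44.7% of all genes tested. The largest differences were in soluble regulators. Cfi had 0.36, 0.15 and 0 CPM in cured mice against 21.6, 4.02, 34.2, 25.8 and 23.9 CPM (-6.98 ± 0.91, edgeR adjusted p = 0.000425). C4bp, a cofactor that dissolves the classical convertase, had 0.97, 0 and 0.097 CPM against 40.0, 9.11, 41.2, 35.8 and 47.7 CPM (-6.60 ± 0.90, edgeR adjusted p = 0.000536). The cured libraries held only 7, 3 and 0 counts of Cfi and 19, 0 and 2 of C4bp, so the size of these fold changes is uncertain. In anti-PD1 mouse 5, with few epithelial transcripts, Cfi and C4bp were 0.26 and 0.21 CPM, against at least 9.87 and 18.6 CPM in the other anti-PD1 mice. Hc, which encodes C5, had at most 3 counts in any cured library. It was at least 9.68-fold lower there than its untreated mean of 1.49 CPM, taking 3 counts per library as the limit. Vsig4, a receptor of C3b on resident macrophages, was lower by -3.36 ± 0.88 (0.28 against 2.97 CPM on average), with 3, 14 and 0 counts in the cured libraries. Clu, the most abundant regulator of the list, had a mean of 229 against 1574 CPM (-2.76 ± 0.28). Of the membrane regulators, Cd55, Cd59a and Cd59b were called higher in cured mice, Cd55 by 1.19 ± 0.20. Serping1, the C1 inhibitor, had 423 against 477 CPM on average. C1s1, the protease partner of C1r, was called lower (-0.83 ± 0.23). Cfp, or properdin, which stabilizes the alternative convertase, was called higher (0.63 ± 0.22). The protease Cfd, mostly from fat, had 836, 461 and 680.3 CPM in cured mice against 280.3, 652, 336, 1439 and 300.3 CPM in untreated mice, whose highest value was mouse 4, and the adipocyte list summed to 979.96 to 1329 CPM in cured mice against 315 to 1162 CPM in untreated mice. Of the lectin and terminal genes, the most abundant were Colec12 (35.9 CPM in cured and 47.6 CPM in untreated mice), Fcna (28.8 and 20.4 CPM), C6 (5.63 and 11.4 CPM, called lower) and C7 (2.72 and 4.14 CPM).

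Between uncured and cured mice, 18 of the 34 were called higher and 8 lower, beside 70.0% of all genes, with C4bp (6.97 ± 0.56), Cfi (6.48 ± 0.81) and Hc (at least 13.5-fold) higher in uncured mice and Cd59b lower (-3.41 ± 0.38). The sizes given for C4bp and Cfi again rest on the few counts of the cured libraries. In uncured against untreated mice and under either single antibody, 0 of the 34 were called by edgeR. At an unadjusted p under 0.05 there were 2 in the uncured mice, Itgb2 (0.81 ± 0.29) and Itgax (0.87 ± 0.35), beside 4.87% of all genes in that comparison, and 0 under anti-PD1 or anti-CTLA4. Between untreated mice at 5wk and 3wk, 1 of the 34 was called higher, C1s2 (1.23 ± 0.34), and 2 lower, Cd55 (-0.80 ± 0.18) and Cd93 (-0.63 ± 0.15). That was 8.82% of the 34, near the share of 10.8% among all genes tested.

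**Figure D5:**
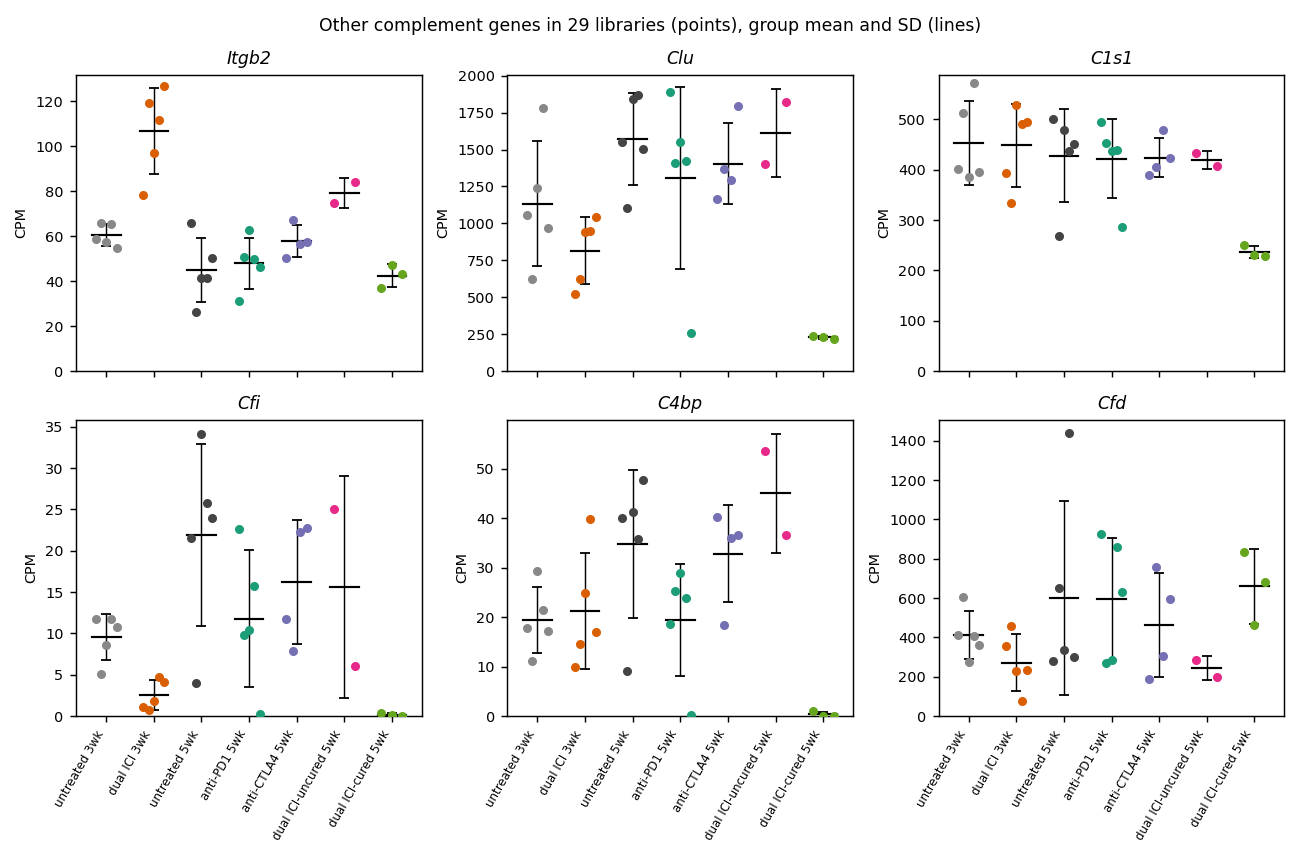
Levels of 6 further complement genes in CPM (linear axes from 0) in 29 libraries by group; each point is 1 mouse, and lines give the group mean and SD. Itgb2 in dual ICI mice at 3wk (78.5 to 127 CPM) lies above the untreated mice (54.9 to 65.8 CPM). Cfi and C4bp are both below 1 CPM in the 3 cured mice and in anti-PD1 mouse 5 (0.26 and 0.21 CPM).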

How the data were processed

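RNA-seq counts per gene of 29 mouse libraries were analysed as deposited by the authors, who made these raw counts without normalization. The submitters' processing notes list STAR 2.7.0f, featureCounts 1.6.4 and build mm10, while the study's methods name another STAR version and HTSeq, and the annotation and strand setting are not given in the sources used here. No sample column was left out. Counts were tested per comparison, on the libraries of the groups compared, with the quasi-likelihood test of edgeR 4.0.16 in R 4.3.3 (TMM scaling, filterByExpr, Benjamini-Hochberg adjustment over all genes tested). CPM used TMM-scaled library sizes over all 29 libraries. Each library is 1 mouse, so errors are the spread between mice. The scripts were tested on simulated data. DESeq2 1.42.0, other size factors and filters, a fit of all libraries, a replicate block and the removal of each library were tried. The rule for further genes named the 4 called complement genes with the largest change per comparison, the 2 most abundant of each class, the most abundant gene of each marker list and the 3 genes nearest in pattern to each member. C3ar1, Itgax, C1s1, Cd55 and Cd59a in cured mice, genes at 0 and the called interferon genes were named after their values were seen. Some genes that the rule names are not reported here. The members and lists were chosen with earlier results of these data known. Gene positions are those of GENCODE on GRCm38, and promoter sequences those of RefSeq GRCm38.p6.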

Additional observations from a re-analysis of the deposited data

Results flagged for a closer look

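For 4 of 45 combinations of a complement gene and a group of 4 or 5 mice, 1 mouse lay far from the others by Dixon's criterion, which chance meets in about 1 of 20 groups. C1qb was 277.5 CPM in anti-CTLA4 mouse 2, against 182 to 194 CPM in the other 3 mice. C2 was 54.2 CPM and Cfb 114 CPM in untreated mouse 2 at 5wk, against 94.9 to 110.3 CPM and 266 to 367 CPM in the other 4 untreated mice. Cfb was 106 CPM in anti-PD1 mouse 5, against 246 to 253 CPM in the other 4 mice. Untreated mouse 2 and anti-PD1 mouse 5 also had the lowest gastric epithelium and the highest skeletal muscle levels of their groups, whose part in these values was not tested.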

How the results depend on the processing

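Of the calls, all 8 in uncured against cured mice held under every alternative run. In cured against untreated mice, Cfb lost its call only when all 5 dual ICI mice at 5wk were taken as 1 group, the alternative that does not use the outcome, where 0 of the 9 genes and 0 of all genes were called and the log2 fold changes were -1.02 (Cfb), -0.44 (C4b), -0.16 (C1qa), -0.15 (C1qb), -0.087 (C1qc) and -0.028 (C5ar1). C2 lost its call there too (-0.50). The fit of all 29 libraries called 5 of the 9 genes in cured against untreated mice, adding C1qb and C1ra, beside 52.1% of all genes, and DESeq2 added C1ra (adjusted p = 0.0453). DESeq2 called 502 genes at 3wk (1 of the 9), 17 in uncured against untreated mice, 3168 between untreated mice of 5wk and 3wk, and 1 for the difference between the 2 dual ICI effects. Without dual ICI mice 3 and 4, an alternative chosen after seeing the data, 5 genes were called at 3wk and C1ra stood at 0.0073. Some values near 0 changed direction: C2 in uncured against untreated mice was 0.00073 without a filter, and the difference between the 2 dual ICI effects was -0.0067 (DESeq2) and -0.0075 (RLE size factors) for C1ra and -0.0085 and -0.0091 for C2. The causes were not tested.

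Same-numbered mice did not deviate together: over 24 same-numbered pairs of mice, the correlation of their deviations ran from -0.65 to 0.64. Of these, 6 were best with their own number. With the replicate block, 209 genes were called at 3wk, and 4016 genes and 1 of the 9 (Cfb) in cured against untreated mice, where C2 had an edgeR adjusted p of 0.0802 and C4b of 0.152. The block gave C2 0.013 at 3wk, C1ra 0.063 in uncured against untreated mice and C5ar1 -0.075 for the difference between the effects, each with its direction changed, and it changed no other call among the 9.

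With 1 library left out at a time, genes called ranged from 6 to 119 at 3wk, 4491 to 9388 in cured against untreated mice, 9668 to 10883 in uncured against cured mice and 654 to 4915 between untreated mice of both times. The calls among the 9 ranged from 0 to 1, from 2 to 8, and from 0 to 1 in the first, second and last of these. The log2 fold changes whose direction turned were at most 0.16 in size with all libraries. Under anti-CTLA4 they ranged from -0.16 to 0.25 (C1qa), -0.15 to 0.19 (C1qb), -0.18 to 0.10 (C1ra), -0.086 to 0.16 (C3) and -0.15 to 0.16 (C4b). Under anti-PD1 they ranged from -0.32 to 0.097 (C1qa), -0.25 to 0.097 (C1qb), -0.15 to 0.15 (C1qc), -0.20 to 0.093 (C1ra), -0.067 to 0.18 (C3), -0.24 to 0.083 (C4b) and -0.055 to 0.31 (C5ar1). At 3wk they ranged from -0.10 to 0.074 (C1ra), -0.10 to 0.14 (C2), -0.082 to 0.14 (C3) and -0.089 to 0.061 (Cfb). In uncured against untreated mice they ranged from -0.26 to 0.13 (C1ra), -0.15 to 0.064 (C2), -0.24 to 0.0045 (C3) and -0.29 to 0.28 (C4b). Between untreated mice they ranged from -0.028 to 0.33 (C1qb), -0.24 to 0.068 (C1ra) and -0.14 to 0.10 (C2), and for the difference between the effects from -0.22 to 0.21 (C1ra), -0.14 to 0.094 (C2) and -0.093 to 0.29 (C5ar1).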
